A study of Mus musculus and Homo sapiens
Mus musculus with 14 samples.

Results

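Retinoid uptake and the visual cycle were followed in mouse retina through 9 genes, Stra6, Rbp3, Rbp4, Rlbp1, Rdh12, Rdh5, Abca4, Lrat and Rpe65, taken by gene symbol as members of the pathway. All 9 were among the 24460 genes listed for the retinal layers, and 8 were among the 18415 genes listed for amacrine cells, Rbp4 being the exception. Light-Seq crosslinks a DNA barcode by light onto cDNA made in place in fixed tissue, so that a chosen region can be sequenced by its barcode. Unique molecular identifiers (UMIs) let copies of the same cDNA be counted a single time, and levels are given as UMIs per 1000000 UMIs of the library (CPM).

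The tissue was dissected neural retina from wild-type CD1 IGS mice in the third postnatal week, with no treatment, and all groups shared this background. In 4 sections, cut from 1 animal as technical replicates, a separate barcode was given to the outer nuclear layer (ONL), where rods and cones lie, to the bipolar cell layer (BCL), which also holds horizontal cells and Müller glia, and to the layer of ganglion cells and displaced amacrine cells (GCL). In 5 other sections, amacrine cells that stained for tyrosine hydroxylase (TH+, the dopaminergic amacrine cells, a few cells a section) and neighbouring unstained amacrine cells (TH-) were barcoded. Barcode and population were tied in both experiments, so the effect of the barcode cannot be told apart from that of the population, and the tests measure the spread between sections and not between animals.

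Vision consumes the retinal chromophore, which is isomerized by light and must be rebuilt. Photoreceptors clear and reduce the spent chromophore, carrier proteins move it between cells, and the pigment epithelium behind the retina esterifies, isomerizes and oxidizes it before it returns. Müller glia hold their own retinoid carrier and are thought to serve a second route that supplies cones.

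Libraries held 310228 to 801105 UMIs for the ONL, 193869 to 208437 for the BCL, 585655 to 785013 for the GCL, 30317 to 87449 for TH+ cells and 134394 to 200344 for TH- cells. The labels were checked against summed markers. Markers of rods (12 genes such as Gnat1 and Pde6b) reached 76838 ± 6396 CPM in the ONL (SD, n = 4), markers of bipolar cells 7079 ± 395 CPM in the BCL, markers of ganglion cells 7128 ± 397 CPM in the GCL, and markers of dopaminergic amacrine cells 3247 ± 1013 CPM in TH+ against 187 ± 50.4 CPM in TH- libraries (SD, n = 5). Rod markers were present in every population, at 18641 ± 4144 CPM in the BCL, 7103 ± 1717 CPM in the GCL, 33665 ± 10645 CPM in TH+ and 19420 ± 6205 CPM in TH- libraries.

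The sequences upstream of 5 members are shown because 4 of these genes were called higher in ONL than in BCL and GCL libraries and 1, Rlbp1, was called highest in the BCL, and because photoreceptor genes are known to be bound by CRX and related homeodomain proteins at sites with the letters TAATCC. The windows are the 250 bases before the RefSeq start site on GRCm38.p6, which differs from the GRCm39 build of the counts. They lie at chr14:33953753-33954002, plus strand for Rbp3, chr3:122044210-122044459, plus strand for Abca4, chr12:79208663-79208912, plus strand for Rdh12, chr3:159598931-159599180, plus strand for Rpe65 and chr7:79387028-79387277, minus strand for Rlbp1. Each is printed 5′ to 3′ on the gene's strand, and capitals mark TAATC or TAATCC on either strand (GATTA or GGATTA as printed on the other strand).
Rbp3: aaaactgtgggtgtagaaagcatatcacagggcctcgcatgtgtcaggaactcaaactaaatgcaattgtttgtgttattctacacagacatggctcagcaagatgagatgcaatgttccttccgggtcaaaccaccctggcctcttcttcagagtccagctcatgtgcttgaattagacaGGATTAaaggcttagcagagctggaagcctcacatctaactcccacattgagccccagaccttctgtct
Abca4: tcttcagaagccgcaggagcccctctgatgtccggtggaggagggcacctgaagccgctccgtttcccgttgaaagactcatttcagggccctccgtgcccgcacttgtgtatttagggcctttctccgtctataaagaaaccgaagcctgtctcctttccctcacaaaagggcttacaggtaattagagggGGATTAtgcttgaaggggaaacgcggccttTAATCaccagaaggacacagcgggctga
Rdh12: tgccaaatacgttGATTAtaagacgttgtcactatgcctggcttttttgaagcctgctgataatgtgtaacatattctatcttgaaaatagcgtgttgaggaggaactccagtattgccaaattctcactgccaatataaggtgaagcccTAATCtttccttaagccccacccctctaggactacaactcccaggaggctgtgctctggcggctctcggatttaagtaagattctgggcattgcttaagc
Rpe65: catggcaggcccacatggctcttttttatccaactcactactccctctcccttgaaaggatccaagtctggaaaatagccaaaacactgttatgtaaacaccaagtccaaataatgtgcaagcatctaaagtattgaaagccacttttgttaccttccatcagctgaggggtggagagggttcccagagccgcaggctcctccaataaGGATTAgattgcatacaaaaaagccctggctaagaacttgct
Rlbp1: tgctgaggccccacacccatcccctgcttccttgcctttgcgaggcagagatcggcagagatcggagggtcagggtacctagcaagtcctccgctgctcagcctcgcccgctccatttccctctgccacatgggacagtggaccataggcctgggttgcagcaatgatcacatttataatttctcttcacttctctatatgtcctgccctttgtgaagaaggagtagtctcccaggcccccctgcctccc
The letters TAATCC were found in the windows of Rbp3 (from -69 relative to the start site), Abca4 (from -58) and Rpe65 (from -42), that is in 3 of 9 members and 3 of their 13 RefSeq start sites, against 6.25% of 32851 promoter windows of the same length. The shorter core TAATC, which every TAATCC also holds, was found in 4 members and 4 of the 13 start sites, the added member being Rdh12 (nearest at -100), against 19.8% of all windows. No match stood in the windows of Rlbp1, Stra6, Rbp4, Rdh5 or Lrat. Of these, Stra6 and Lrat also had their highest mean in the ONL, with values that overlapped the BCL. These are matches of letters, not measured binding.

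Together the members made up 1.12% ± 0.211 of all ONL UMIs, 0.441% ± 0.0364 of BCL UMIs and 0.140% ± 0.0339 of GCL UMIs (SD, n = 4). They fell into a group at 603 to 6765 CPM on average in the ONL (Rbp3, Abca4, Rdh12), a gene of the BCL (Rlbp1) and a group with few UMIs (Rpe65, Stra6, Rdh5, Lrat, Rbp4). Per transcript length, the ONL ran from Rbp3 at 1278 ± 255 CPM per kilobase through Abca4 at 294 ± 64.7, Rdh12 at 203 ± 26.3, Rlbp1 at 60.5 ± 18.5 and Rpe65 at 18.6 ± 4.94 down to Rdh5 at 4.29 ± 0.717 and Stra6 at 2.82 ± 0.831. In the BCL on the same scale, Rlbp1 at 411 ± 22.3 and Rbp3 at 390 ± 54.2 led and did not differ beyond their spread.

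**Figure D1:**
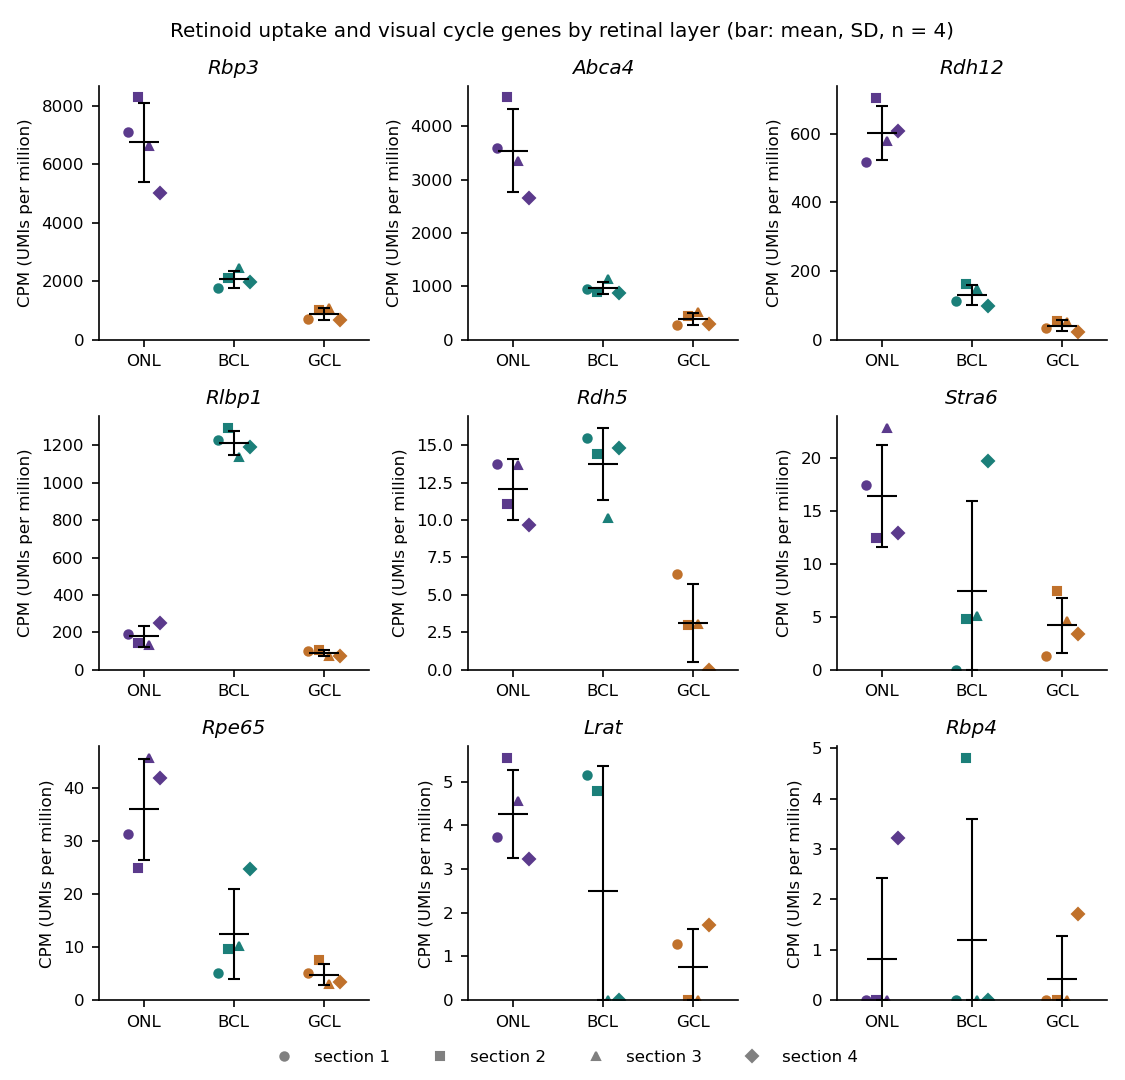
CPM of the 9 members (vertical axes, linear, each panel with its own scale) in the ONL, BCL and GCL (horizontal axes); points are single sections with a symbol per section, and bars give the mean and SD of 4 sections. Rbp3, Abca4 and Rdh12 stepped down from ONL to BCL to GCL, Rlbp1 stood out in the BCL, and Lrat and Rbp4 rested on 0 to 4 UMIs a library.

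Counts were compared between layers with edgeR's quasi-likelihood test across 11324 genes, of which 7 members passed the low-count filter, Lrat and Rbp4 falling below it. Stra6 reached the filter's minimum level in all 4 ONL libraries, but elsewhere only in BCL section 4 and GCL section 2. It therefore entered the test through the ONL, where its mean was highest. Between the ONL and the BCL, 4 members were called higher in the ONL (Rbp3, Abca4, Rdh12, Rpe65), where 18.5% of all tested genes were called higher in that layer, and 1 was called higher in the BCL (Rlbp1), against 18.2% of all genes. Between the ONL and the GCL all 7 tested members were called higher in the ONL, against 29.3% of all genes, and none higher in the GCL, against 32.2%. Between the BCL and the GCL 5 were called higher in the BCL (Rbp3, Abca4, Rdh12, Rlbp1, Rdh5), against 16.1% of all genes, and none was called higher in the GCL, against 20.4%. In neither comparison with the GCL did DESeq2 or an unadjusted p under 0.05 put a tested member higher there. The median log2 fold change of the tested members was 1.75, 2.91 and 1.17 in these comparisons, beside 0.09, 0.00 and -0.02 for all tested genes.

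The step from ONL to GCL was larger than that from ONL to BCL for each of the photoreceptor members. In bulk libraries such as these, fewer cells of a type and less RNA per cell cannot be told apart.

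**Figure D2:**
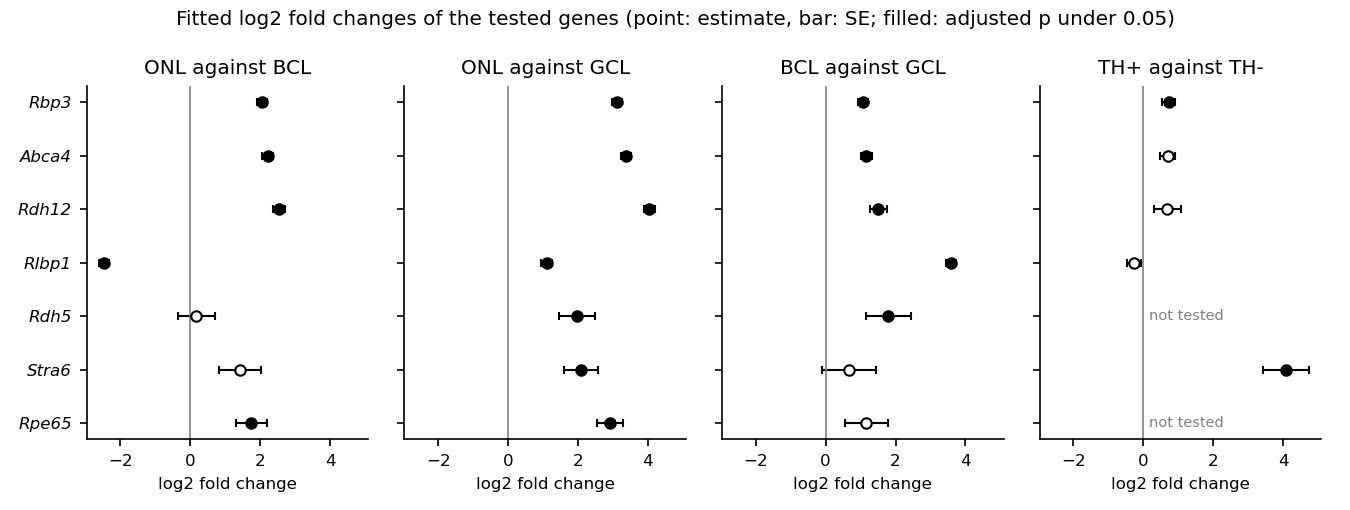
Log2 fold changes (horizontal axes) of the members tested in the 4 comparisons (7 between layers, 5 between TH+ and TH- cells), with standard errors as bars; filled points have an adjusted p under 0.05 and positive values are higher in the group named first. Rlbp1 was the member with a negative value between ONL and BCL, and Stra6 had the largest value between TH+ and TH- cells.

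Among the carriers, Rbp3 encodes the retinoid-binding protein of the space between photoreceptors and pigment epithelium (IRBP; chr14:33675960-33686173, plus strand, 4 exons, GRCm39). Rbp3 had 5687, 6003, 2899 and 1563 UMIs in ONL sections 1 to 4, 341, 440, 480 and 396 in the BCL, and 562, 675, 711 and 396 in the GCL. In CPM the ONL ranged from 5038 to 8304, the BCL from 1759 to 2439 and the GCL from 676 to 1093, so the layers did not overlap. The means were 6765 ± 1352, 2067 ± 287 and 874 ± 209 CPM (SD, n = 4). The log2 fold change was 2.05 ± 0.14 (SE) between ONL and BCL (edgeR adjusted p = 5.1e-18), 3.12 ± 0.14 between ONL and GCL (adjusted p = 9.9e-26) and 1.07 ± 0.14 between BCL and GCL (adjusted p = 8.9e-09).

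Rlbp1, which encodes the cellular retinaldehyde-binding protein CRALBP of Müller glia and pigment epithelium (chr7:79024602-79038176, minus strand), had the opposite order of ONL and BCL. Its counts were 152, 104, 57 and 78 ONL UMIs, 238, 270, 224 and 241 BCL UMIs and 80, 71, 49 and 43 GCL UMIs, although the BCL libraries were the smallest of the layers. Means were 1213 ± 66.0 CPM in the BCL, 179 ± 54.7 in the ONL and 89.3 ± 17.3 in the GCL (SD, n = 4), and no layer overlapped another. Fitted log2 fold changes were -2.47 ± 0.13 between ONL and BCL (edgeR adjusted p = 4.6e-22), 3.58 ± 0.14 between BCL and GCL (adjusted p = 3.9e-28) and 1.11 ± 0.16 between ONL and GCL (adjusted p = 1.6e-08). The summed markers of Müller glia (10 genes such as Glul and Apoe) followed part of this order, at 7304 ± 431 CPM in the BCL, 1242 ± 228 in the ONL and 2140 ± 150 in the GCL.

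Stra6, the membrane receptor that takes up retinol from its plasma carrier (chr9:57970967-58063543, plus strand), and Rbp4, that plasma carrier (chr19:38105066-38113754, minus strand), had few UMIs in every layer. Stra6 had 14, 9, 10 and 4 ONL UMIs, 0, 1, 1 and 4 BCL UMIs and 1, 5, 3 and 2 GCL UMIs. The ONL and GCL did not overlap in CPM, and the difference of 2.09 ± 0.48 on the log2 scale was called (edgeR adjusted p = 1.6e-04). Between ONL and BCL the estimate was 1.43 ± 0.60 (adjusted p = 0.058), which became 2.62 (adjusted p = 0.011) without section 4, and between BCL and GCL it was 0.67 ± 0.77 (adjusted p = 0.54). Rbp4 had 1 UMI in each layer over all 4 sections, which allows up to 2.45 CPM in ONL, 6.95 in BCL and 2.07 in GCL libraries (upper ends of exact 95% Poisson intervals, counting error only).

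Photoreceptors dispose of spent chromophore through Abca4, the flippase of the outer segment discs (chr3:121838092-121973772, plus strand), and reduce it with enzymes such as Rdh12, the all-trans retinol dehydrogenase of the inner segment (chr12:79255647-79269440, plus strand). Abca4 had 2885, 3283, 1471 and 825 ONL UMIs, 185, 188, 223 and 176 BCL UMIs and 215, 301, 332 and 174 GCL UMIs. Its means of 3540 ± 778, 965 ± 117 and 383 ± 116 CPM (SD, n = 4) did not overlap between layers. The log2 fold change was 2.21 ± 0.15 between ONL and BCL (edgeR adjusted p = 3.1e-18), 3.38 ± 0.15 between ONL and GCL (adjusted p = 3.7e-26) and 1.17 ± 0.16 between BCL and GCL (adjusted p = 1.7e-08).

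Rdh12 had the largest estimate from ONL to GCL among the tested members. It had 415, 510, 254 and 189 ONL UMIs, 22, 34, 29 and 20 BCL UMIs and 27, 36, 34 and 13 GCL UMIs, or 603 ± 78.1, 131 ± 29.7 and 40.7 ± 15.2 CPM (SD, n = 4) with no overlap. In the fit, the log2 fold change was 2.53 ± 0.17 between ONL and BCL (edgeR adjusted p = 9.7e-19), 4.04 ± 0.16 between ONL and GCL (adjusted p = 1.6e-28) and 1.51 ± 0.24 between BCL and GCL (adjusted p = 5.8e-07).

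The ONL sections were not alike. Rbp3 and Abca4 were lowest in ONL section 4, the smallest ONL library, at 5038 and 2659 CPM, whereas Rdh12 there was within the range of the other sections at 609 CPM. Summed cone markers were also lowest in that library, at 1212 CPM against 2077 to 2544 CPM in the other sections, while rod markers at 79935 CPM were within the range of the others. The part of these differences in the layer comparisons was not tested, but each of the 3 genes kept its calls without section 4.

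Rpe65, Lrat and Rdh5 encode the isomerohydrolase, the retinol acyltransferase and the 11-cis retinol dehydrogenase of the pigment epithelium. The samples were dissected neural retina. Of the pigment epithelium's defining markers, Best1 had 1 UMI and Tyr 2 UMIs in the 4 ONL libraries, and neither had any in the BCL or GCL. The pigment genes Dct, Tyrp1 and Pmel had 20, 14 and 11 ONL UMIs, 2, 3 and 1 BCL UMIs and 4, 7 and 2 GCL UMIs. Slc45a2 had 2 UMIs, both in the GCL, and Slc16a8 had 7, 4 and 9 UMIs in that order of layers. More abundant were Krt18, at 30.9, 8.84 and 2.28 CPM in ONL, BCL and GCL libraries, and Rgr, at 32.6, 16.2 and 6.20 CPM. The whole list of 13 pigment epithelium genes, of which 11 were listed, summed to 129 to 213 CPM in the ONL, 98.9 to 144 in the BCL and 16.9 to 54.6 in the GCL, with Ttr giving the most UMIs. Its part in the levels of these 3 genes was not tested.

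Rpe65 (chr3:159304802-159330958, plus strand) had 25, 18, 20 and 13 ONL UMIs, 1, 2, 2 and 5 BCL UMIs and 4, 5, 2 and 2 GCL UMIs. The ONL, at 35.9 ± 9.56 CPM, overlapped neither the BCL at 12.4 ± 8.51 nor the GCL at 4.77 ± 2.02 (SD, n = 4). Its lowest section, at 24.9 CPM, was barely above the highest BCL section, at 24.7 CPM on 5 UMIs. The log2 fold change of Rpe65 was 1.75 ± 0.43 between ONL and BCL (edgeR adjusted p = 8.3e-04), 2.91 ± 0.37 between ONL and GCL (adjusted p = 1.1e-09), and 1.16 ± 0.61 between BCL and GCL (adjusted p = 0.14), or 0.46 (adjusted p = 0.73) without section 4.

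Rdh5 (chr10:128749385-128759341, minus strand) had 11, 8, 6 and 3 ONL UMIs, 3, 3, 2 and 3 BCL UMIs and 5, 2, 2 and 0 GCL UMIs. At 12.04 ± 2.01 CPM in the ONL and 13.7 ± 2.41 in the BCL (SD, n = 4) these layers overlapped, with a log2 fold change of 0.18 ± 0.52 whose 95% interval ran from -0.85 to 1.20 (edgeR adjusted p = 0.84). Both layers were called above the GCL at 3.11 ± 2.60 CPM (2.02 CPM without section 1), by 1.97 ± 0.51 for the ONL (adjusted p = 7.8e-04) and 1.79 ± 0.65 for the BCL (adjusted p = 0.025). The BCL call did not hold without the low-count filter (adjusted p = 0.071) or without section 2, 3 or 4 (adjusted p = 0.088, 0.053 and 0.15). In the later annotation GENCODE vM39, Rdh5 exons share 3692 bases with Bloc1s1 on the same strand. The deposited gene length of 2809 bases is shorter than that overlap, so the annotation behind the counts differed and the overlap in it is not known here.

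Lrat (chr3:82799886-82811288, minus strand) had 3, 4, 2 and 1 ONL UMIs, 1, 1, 0 and 0 BCL UMIs and 1, 0, 0 and 1 GCL UMIs. Over all sections the ONL held 10 UMIs and the GCL 2, a ratio of 5.92 per UMI sequenced with an exact 95% counting interval from 1.26 to 55.5. In a fit without the low-count filter this difference was called (edgeR adjusted p = 0.044). Against the 2 UMIs of the BCL the ratio was 1.76, with an interval from 0.376 to 16.6 that includes equality.

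Members were next set against summed markers of rods or of Müller glia, to show levels in proportion to those markers. The rod list holds no cone markers, although cones share the ONL. Per 1000 rod marker UMIs, Rbp3 had 88.8 ± 20.7 UMIs in ONL, 112 ± 8.57 in BCL and 123 ± 6.49 in GCL libraries (SD, n = 4), a narrower range than in CPM and with overlap between neighbouring layers but not between ONL and GCL. Within each of the 4 sections the Rbp3 ratio was lowest in the ONL and highest in the GCL. Abca4 had 46.4 ± 11.3, 52.8 ± 7.78 and 53.3 ± 3.65, which overlapped in all layers. ONL section 4, lowest of the ONL in cone markers, also had the lowest ONL ratios of Rbp3 (63.0) and Abca4 (33.3). The part of cones in these ratios was not tested. Rdh12 had 7.85 ± 0.809 in ONL, 7.11 ± 1.47 in BCL and 5.64 ± 1.30 in GCL libraries, where the ONL (7.11 to 9.003) lay above the GCL (3.80 to 6.81).

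Rlbp1 per 1000 Müller glia marker UMIs stood at 166 ± 12.1 in the BCL and 143 ± 26.6 in the ONL, which overlapped, and at 41.7 ± 7.71 in the GCL, which overlapped neither. The Müller markers were not alike in this. Aqp4, at 197 CPM in BCL, 17.8 in ONL and 11.2 in GCL libraries, and Clu, at 740, 427 and 351 CPM, had the layer order of Rlbp1. All other markers of the list had a higher mean in the GCL than in the ONL. These were Glul, Apoe, Slc1a3, Kcnj10, Sox9, Vim, Dkk3 and Hes1, with Kcnj10 at 199, 35.9 and 177 CPM.

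**Figure D3:**
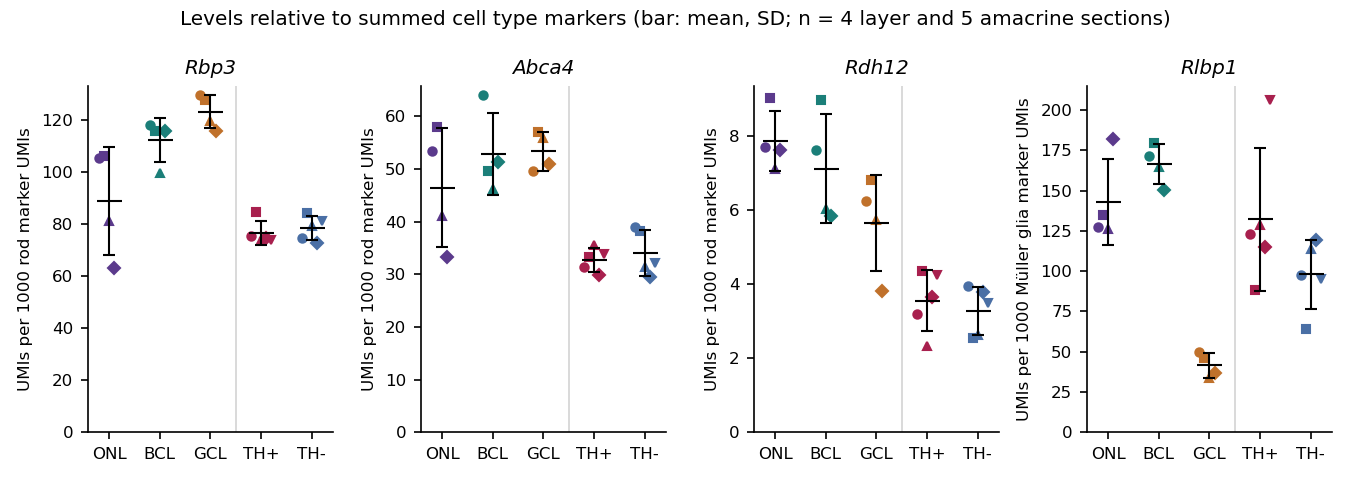
UMIs of Rbp3, Abca4 and Rdh12 per 1000 rod marker UMIs, and of Rlbp1 per 1000 Müller glia marker UMIs (vertical axes), in the 3 layers (4 sections) and in TH+ and TH- cells (5 sections); points are sections, bars the mean and SD, and the grey line separates the experiments. The rod ratios of TH+ and TH- cells overlapped for all 3 genes, and Rlbp1 in the GCL stood below the other layers.

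In the amacrine sections the question was which members differed between dopaminergic and other amacrine cells. The edgeR fit covered 6021 genes and 5 members, since Rdh5, Rpe65 and Lrat reached the filter's minimum level in too few libraries. Of the 5, 2 were called higher in TH+ cells (Stra6 and Rbp3), where 0.747% of all tested genes were, and none was called higher in TH- cells, where 0.083% were. DESeq2 and an unadjusted p under 0.05 likewise put none of the 5 higher in TH- cells. Stra6 reached the filter's minimum level in TH+ libraries only (61.3 to 108 CPM, against at most 7.44 in TH-). It therefore entered the test through the group where it was high. The median log2 fold change of the 5 was 0.70, beside -0.05 for all tested genes.

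Stra6 had 3, 8, 3, 5 and 2 UMIs in TH+ sections 1 to 5 and 1, 0, 1, 1 and 0 in the TH- cells of the same sections, although TH- libraries were the larger. In CPM this was 79.5 ± 19.7 against 3.80 ± 3.58 (SD, n = 5), without overlap, and the TH- libraries with 0 UMIs, sections 2 and 5, could hold up to 17.4 and 21.1 CPM at a count limit of 3. The log2 fold change was 4.08 ± 0.65 (edgeR adjusted p = 3.8e-05), higher in 5 of 5 sections. Summed over sections, 21 UMIs against 3 gave a ratio of 22.0 with an exact 95% counting interval from 6.56 to 115. The study had picked Stra6 as a marker of TH+ cells on these same libraries, so the call is not independent evidence of its direction. Separately, the paper reports RNA-FISH, a staining of RNA in place, on new sections from a littermate. There Stra6 was enriched in TH+ cells over neighbouring TH- amacrine cells.

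Rbp3 had 118, 117, 127, 143 and 87 UMIs in TH+ cells and 265, 132, 242, 347 and 209 in TH- cells, or 2539 ± 720 against 1502 ± 432 CPM (SD, n = 5). TH+ was higher in 5 of 5 sections, but the groups overlapped because section 2 was low in both populations, at 1338 and 764 CPM. The log2 fold change was 0.72 ± 0.19 (edgeR adjusted p = 0.043). With the section as a block the adjusted p was 3.5e-11, while DESeq2, which called 0.809% of its genes, gave 0.097, no low-count filter 0.12, and leaving out section 1, 3, 4 or 5 gave 0.091, 0.21, 0.25 and 0.29. The call held without section 2 (adjusted p = 1.3e-04) and with other size factors (0.024), and the log2 fold change was 0.56 without the filter and 0.68 to 0.78 in the other fits.

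Abca4 and Rdh12 had estimates of the same size. Abca4 had 49, 46, 61, 57 and 40 UMIs in TH+ and 138, 60, 96, 140 and 83 in TH- cells, or 1103 ± 360 against 651 ± 205 CPM, with a log2 fold change of 0.70 ± 0.21 (edgeR adjusted p = 0.098). With the section as a block the value was 0.72 (adjusted p = 8.1e-06), a call that 2.46% of all genes received in that fit, and without section 2 it was 0.75 (adjusted p = 0.0015). Rdh12 had 5, 6, 4, 7 and 5 UMIs in TH+ and 14, 4, 8, 18 and 9 in TH- cells, with 0.69 ± 0.39 (adjusted p = 0.63) and TH+ higher in CPM in 5 of 5 sections.

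Rod markers moved with these photoreceptor genes. The 12 genes summed to 15792 to 41345 CPM in TH+ and 9066 to 23764 CPM in TH- libraries, all 12 were detected in both, and section 2 was the lowest of each group. Per 1000 rod marker UMIs, Rbp3 was at 76.6 ± 4.61 in TH+ and 78.4 ± 4.62 in TH- cells, Abca4 at 32.8 ± 2.26 and 34.0 ± 4.30, and Rdh12 at 3.55 ± 0.826 and 3.28 ± 0.654 (SD, n = 5). On that scale the groups overlapped for each gene, whereas Stra6 was at 2.75 ± 1.74 in TH+ and 0.164 ± 0.155 in TH- cells without overlap.

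**Figure D4:**
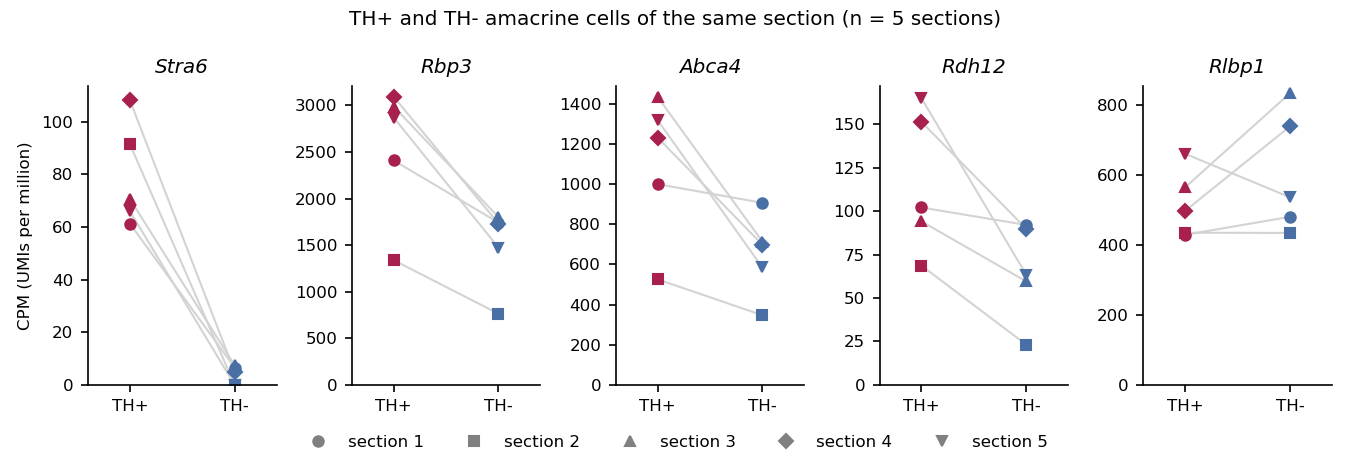
CPM (vertical axes, linear, each panel with its own scale) of the 5 tested members in TH+ and TH- amacrine cells; a grey line joins the populations of a section, and symbols mark sections 1 to 5. Stra6 was separated between the populations, Rbp3, Abca4 and Rdh12 had a lower value in TH- than in TH+ cells of each section but with overlapping groups, and Rlbp1 went either way.

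Rlbp1 had 21, 38, 24, 23 and 20 UMIs in TH+ and 73, 75, 112, 148 and 76 in TH- cells, or 517 ± 97.0 against 604 ± 173 CPM (SD, n = 5). It was higher in TH+ in 2 of 5 sections, and the log2 fold change of -0.27 ± 0.20 had a 95% interval from -0.66 to 0.11 (edgeR adjusted p = 0.76). Müller markers summed to 4069 ± 708 CPM in TH+ and 6157 ± 940 CPM in TH- libraries, and were lower in the TH+ cells of every section. Per 1000 of those UMIs Rlbp1 was at 132 ± 44.2 and 98.1 ± 21.5, which overlapped. Within sections this ratio was higher in TH+ cells except in section 4, at 115 against 119.

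The remaining members were at the limit of detection in amacrine cells. Rpe65 had 0, 0, 1, 1 and 2 UMIs in TH+ and 1, 0, 7, 4 and 2 in TH- cells, a ratio of 0.896 per UMI sequenced with an exact 95% counting interval from 0.215 to 2.85. By mean CPM the order was the other way, at 22.2 ± 26.9 in TH+ and 18.5 ± 20.2 in TH- cells (SD, n = 5). These means fell as low as 11.3 and 10.2 CPM with 1 section left out. Rdh5 had 1 UMI in TH+ and 4 in TH- cells over all sections, and Lrat 1 and 2, so a difference was not detectable at this depth.

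The amacrine and layer libraries came from other sections and another sequencing run, so their levels are set side by side without a test. Stra6 in TH+ cells, at 79.5 CPM, compared with 16.4 ± 4.84 CPM in ONL, 7.41 ± 8.56 in BCL and 4.20 ± 2.59 in GCL libraries. Without section 4 the BCL mean was 3.29 CPM, below the GCL mean. The TH- mean of 3.80 CPM was near that of the GCL. Rbp3 was at 2539 and 1502 CPM in TH+ and TH- libraries, between the ONL mean and the GCL mean. The gene order per length in TH+ cells was Rbp3, Rlbp1, Abca4, Rdh12 and then Stra6, at 13.6 ± 3.39 CPM per kilobase, whereas Stra6 stood at rank 7 in every layer and in TH- cells. Rpe65 came next in TH+ cells at 11.5 ± 13.9 on 4 UMIs, so its order against Stra6 was within the spread. In 3 wells of 3T3 mouse fibroblasts barcoded in the same series, all members together had 4 UMIs of 540880.

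The wider retinoid pathway was read from a list of 43 genes, of which 33 were listed for the layers and 20 tested. Between ONL and BCL, 9 were called higher in ONL and 3 in BCL libraries (18.5% and 18.2% of all tested genes), between ONL and GCL 9 and 4 (29.3% and 32.2%), and between BCL and GCL 7 and 4 (16.1% and 20.4%). The 12 calls between ONL and BCL became 9 with DESeq2, 10 with the section as a block and 9 to 10 with a section left out, and those higher in the BCL became 1 without section 1 or 2. The median log2 fold change was 0.71, 0.64 and 0.10 beside the medians of all genes given above. Of 9 genes tested in amacrine cells none was called with edgeR or DESeq2, against 0.747% of all genes called higher in TH+ and 0.083% in TH- cells by edgeR, and 1, Rdh10, had an unadjusted p under 0.05.

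Of 6 dehydrogenases tested, 3 were called higher in the ONL than in the BCL and 4 than in the GCL, against 18.5% and 29.3% of all tested genes. Rdh8, an all-trans retinol dehydrogenase of photoreceptor outer segments, was at 282 ± 69.7 CPM in ONL, 73.8 ± 29.6 in BCL and 21.5 ± 8.44 in GCL libraries (SD, n = 4), with log2 fold changes of 2.28 ± 0.21 and 3.87 ± 0.20 for the ONL against the other layers (edgeR adjusted p = 1.7e-13 and 4.2e-24). Dhrs3, a retinaldehyde reductase, was at 447 ± 61.4, 104 ± 18.0 and 47.8 ± 9.03 CPM, and Rdh11 at 45.6 ± 7.54, 22.5 ± 12.2 and 19.4 ± 1.15 CPM, both called higher in the ONL than in either layer. Rdh10, the retinol dehydrogenase that begins retinoic acid synthesis, was instead highest in the BCL at 51.4 ± 12.9 CPM, and was called above the GCL in both other layers. Rdh13 and Rdh14 were called in no layer comparison.

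Other genes of transport and light-driven isomerization divided between layers. Scarb1, a scavenger receptor that takes up carotenoids, was at 368 ± 47.3 CPM in ONL, 154 ± 16.9 in BCL and 47.2 ± 10.04 in GCL libraries, each step called. Rgr, an opsin of pigment epithelium and Müller glia, was called higher in the ONL (32.6 ± 10.3 CPM) than in the BCL and GCL, and Ttr, the plasma carrier of the Rbp4 complex, stepped down from 83.5 ± 15.5 CPM in the ONL. Rrh, the opsin peropsin, was highest in the BCL at 22.7 ± 10.9 CPM against 2.74 ± 2.43 in the ONL and 0.693 ± 0.806 in the GCL. Degs1, a desaturase also described as a retinol isomerase, was called highest in the GCL at 95.5 ± 3.53 CPM.

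Cd36, another scavenger receptor, had 46 UMIs in the GCL and none in the ONL or BCL. Crabp1, a retinoic acid-binding protein of some amacrine cells, had 29 UMIs in the GCL, 8 in the ONL and 0 in the BCL, and both genes were called higher in the GCL. Among the retinoic acid receptors, Rara (151 ± 11.95 CPM) and Rxra (123 ± 20.6 CPM) were called highest in the ONL, and Rarg was called lowest there at 3.43 ± 2.31 CPM. Rxrg was called lowest in the BCL at 4.98 ± 5.76 CPM. Between ONL and BCL, Rarg (edgeR adjusted p = 0.048) and Rxrg (0.046) were not called with DESeq2 (0.068 and 0.18). These were not the only calls of the wider list that DESeq2 did not keep. Calls favouring the ONL went from 9 to 7, and those favouring the BCL from 3 to 2. At least another ONL call besides Rxrg was therefore lost, and its gene is not identified here.

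The genes with the most similar pattern were found by Pearson's r of log2 CPM over the 12 layer libraries, as a description in which points share sections and layers. For Rbp3 these were Abca4 (r = 0.998), Slc24a1, Prom1 and Rtbdn (0.996 each), and for Abca4 they were Rbp3, Rtbdn, Slc24a1, Vtn and Reep6. Rdh12 was closest to Reep6 (0.998), Chd7, Pde6b, Mpp4 and Gnb5, and Rlbp1 to Trpm1 (0.996), Grm6, Prkca, Zbtb20 and Mgarp. Of the last set, Trpm1, Grm6 and Prkca are markers of ON bipolar cells, which lie in the same layer as Müller cell bodies. Over the 10 amacrine libraries, Stra6 was closest to Th (0.944), Resp18, Clstn2, Cartpt and Tspyl2 (0.938).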

How the data were processed

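The values deposited by the authors are UMI counts per gene and library, whole numbers without normalization. Per the labels and methods, reads were aligned to mm39 with STAR 2.7.9a, assigned to GENCODE exons with featureCounts and collapsed by UMI with UMI-tools 1.1.1, and 2 ribosomal RNA genes were left out. Reads with several matches were dropped. The authors ran featureCounts at its defaults, which leave a read overlapping exons of 2 genes uncounted and do not use strand.

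Counts were tested with edgeR 4.0.16 (R 4.3.3; TMM scaling, quasi-likelihood F-test, edgeR's expression filter, which asks for 10 UMIs in total and for the CPM that 3 UMIs give in a library of median size in at least as many libraries as a group holds, 4 for layers and 5 for amacrine cells, Benjamini-Hochberg adjustment at 0.05) in 1 fit over 12 layer libraries and 1 over 10 amacrine libraries. The standard error is the log2 fold change divided by the square root of F. Common biological coefficients of variation were 9.17% and 16.0%. Fitted folds use TMM-scaled libraries and so differ from ratios of CPM. The procedure was tested on simulated data with known changes. Levels per length used gene lengths deposited with the mixed culture. Intervals are exact and cover counting error only.

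The named members and all lists were chosen with earlier results of these data known. All members are named, other list genes where called and at a mean of at least 10 CPM in a group, and 5 genes of like pattern for each of 5 members. A few of the genes so chosen are left unreported.

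Libraries with the same number come from the same section, by the labels. Residual correlations of such pairs were 0.0116 to 0.0493 for the layers (0 of 12 over 0.1) and 0.0287 to 0.257 for the amacrine cells (2 of 5 over 0.1). Alternatives were DESeq2 1.42.0, size factors in place of TMM, no filter, the section as a block, each section left out, and CPM without mitochondrially encoded genes. Human tables and the deeper mixed-culture run were not used here. Coordinates are from GENCODE vM39 on GRCm39, matched by Ensembl identifier.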

Additional observations from a re-analysis of the deposited data

Results flagged for a closer look

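Over 63 sets of section values, 9 had an end value whose gap to the nearest other section, as a share of the range, exceeded Dixon's 95% limit. That limit is set for continuous values. A set with UMIs in only 1 section always exceeds it, so the 9 cannot be read against a chance rate. Of the 9, 6 rested on 1 or 2 UMIs where the other sections had 0. These were Rbp4 in GCL section 4 (1.71 CPM), BCL section 2 (4.80 CPM) and ONL section 4 (3.22 CPM), Rdh5 in TH+ section 4 (21.6 CPM), and Lrat in TH+ section 2 (11.4 CPM) and TH- section 1 (13.1 CPM).

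The other 3 were ratios to markers. Rbp3 in BCL section 3 had 99.5 UMIs per 1000 rod marker UMIs, below the next value of 116, in the library with the highest rod markers of the BCL. Rbp3 in TH+ section 2 had 84.7 per 1000, above the next value of 75.4, in the section with the lowest rod markers. Rlbp1 in ONL section 4 had 182 per 1000 Müller glia marker UMIs, above the next value of 135, on 78 UMIs.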

How the results depend on the processing

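Of 213 refitted log2 fold changes of tested members, 199 kept their direction and their side of the threshold, 10 lost the call, 3 gained it and 1 turned. That 1 was Stra6 between BCL and GCL, not called in any fit, which ranged from -0.53 (without section 4) to 1.25 over fits that left out a section. The count of members called between TH+ and TH- cells was 1 with DESeq2 and 1 without the filter, against 2, and ranged from 1 to 3 with a section left out. Stra6 was called in every fit of that comparison. With the section as a replicate block it had 4.08, Rbp3 0.75 and Abca4 0.72, and Abca4 was the member whose call the block changed. Over all genes the block gave 148 calls against 50, and leaving out section 3 or 5 gave 29 and 31. The other 60 of 66 counts of calls, over both directions, were within 1.5 times the reported ones, but the 3 wider pathway genes called higher in the BCL than in the ONL became 1 without section 1 or 2. Mean CPM moved by more than 1 SD in 1 of 231 cases, Rlbp1 in the BCL, to 1295 without mitochondrially encoded genes. Leaving out 1 of 4 or 5 sections cannot move a mean by more than 1 SD. Those cases, most of the 231, could therefore not have been counted as moved.

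Depth limited Rbp4, Lrat, Rdh5 and Rpe65, with 0 to 25 UMIs a library, and Stra6, with 0 to 14. Layer sections came from 1 animal.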
